A study of Mus musculus with 20 samples.

Results

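The choroid plexus is the tissue in the brain ventricles that makes cerebrospinal fluid, and 34 genes that its epithelial cells are known to express were followed across 20 RNA-seq libraries of mouse hippocampus. They were taken from a table of 39056 genes, of which 28691 had at least 1 count. The 34 genes were selected on measured values, because their levels in these libraries varied widely within the groups. Their spread and their levels are therefore given as a description.

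Choroid plexus epithelium lines a stalk of vessels and stroma and joins the ependyma, the ciliated lining of the ventricle. Its cells are sealed by tight junctions, move ions and water into the fluid, and secrete carrier proteins, with transthyretin as the most abundant. The hippocampus lies against the lateral ventricle, where a sheet of choroid plexus is attached along its fimbria.

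RNA came from the left hippocampus of female C57BL/6 mice, 1 library per mouse and 5 mice in each of 4 groups. Behavioural tests had been done at 12 months of age, and mice were perfused with saline before the brain was taken. The groups were WT Non-Tg (miR-34a+/+, no transgene), KO Non-Tg (miR-34a-/-, no transgene), WT Tg-SwDI (miR-34a+/+ with the transgene) and KO Tg-SwDI (miR-34a-/- with the transgene). Tg-SwDI mice carry human amyloid precursor protein with the Swedish, Dutch and Iowa mutations under the neuronal Thy1 promoter, and the knockout of the microRNA miR-34a is constitutive and in the whole body. The study asked how loss of miR-34a changes the hippocampal transcriptome with and without the transgene. A single library is called by its group and its label's replicate number.

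The libraries held between 19549622 and 21066868 counts on genes. Mitochondrial genes took 14.6% of counts in KO Tg-SwDI replicate 8, against 6.94% to 8.76% in the other 19 libraries. The transgene label was checked by Thy1, the source of its promoter, at 684 to 769 CPM in Non-Tg and 1903 to 3316 CPM in Tg-SwDI libraries. CPM are counts scaled to a common library total with edgeR's TMM factors. Xist, expressed from the inactive X chromosome, lay between 326 and 666 CPM in the 20 libraries. The microRNA itself was not analysed here.

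Sequence in front of 5 members is shown because the list holds Otx2, a homeobox transcription factor of choroid plexus epithelium, and because the members moved together. RefSeq start sites (GRCm38.p6, the mm10 assembly) were matched for 27 of the 34 members, in 37 windows, and the 250 bases before each start site were searched for TAATCC, the core sequence bound by OTX homeodomains, on both strands. It was found in 3 of 37 member windows (8.11%), those of Ace, Mfrp and Otx2, and in 6.25% of all 32851 windows. Cdkn1c, Clic6, Enpp2, Folr1, Lbp, Sostdc1 and Ttr were not searched. Capitals mark TAATCC or, where it lies on the other strand, GGATTA. All are written from 5′ to 3′ on the strand of the gene.
The 250 bases before the Ace start site, chr11:105967698-105967947, plus strand, hold the motif on the strand of the gene.
Ace: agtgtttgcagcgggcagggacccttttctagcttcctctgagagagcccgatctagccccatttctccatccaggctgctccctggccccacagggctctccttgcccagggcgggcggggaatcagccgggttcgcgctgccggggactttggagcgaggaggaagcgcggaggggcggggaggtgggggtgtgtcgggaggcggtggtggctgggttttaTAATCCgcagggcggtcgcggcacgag
The stretch of 209 bases shown for Mfrp, chr9:44101520-44101728, plus strand, holds it on the other strand.
Mfrp: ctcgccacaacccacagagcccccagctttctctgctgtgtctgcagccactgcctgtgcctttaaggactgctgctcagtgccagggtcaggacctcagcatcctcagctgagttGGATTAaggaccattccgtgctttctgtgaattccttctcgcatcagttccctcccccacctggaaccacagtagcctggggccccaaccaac
For Otx2, the match lies within an annotated exon, so 26 bases around it are shown, chr14:48665305-48665330, minus strand.
Otx2: tgtgcccctcGGATTAtctcgttagt
Kcnj13, chr1:87394730-87394979, minus strand, and Cldn2, chrX:139800558-139800807, plus strand, are members without a match in this stretch.
Kcnj13: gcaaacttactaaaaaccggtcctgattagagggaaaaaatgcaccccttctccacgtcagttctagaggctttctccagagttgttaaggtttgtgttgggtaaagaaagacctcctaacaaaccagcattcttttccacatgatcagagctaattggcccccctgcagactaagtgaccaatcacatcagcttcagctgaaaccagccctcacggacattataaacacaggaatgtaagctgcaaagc
Cldn2: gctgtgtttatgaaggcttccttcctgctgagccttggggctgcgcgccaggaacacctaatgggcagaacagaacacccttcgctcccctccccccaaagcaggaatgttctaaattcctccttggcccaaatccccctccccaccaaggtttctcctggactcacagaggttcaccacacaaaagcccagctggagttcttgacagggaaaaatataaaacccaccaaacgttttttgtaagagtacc

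Most of the choroid plexus genes lay at a high or at a low level in a given library, with a step between the levels that differed in size by gene. Ttr, which encodes transthyretin, the carrier of thyroid hormone and retinol-binding protein (chromosome 18, 20665280 to 20674321), lay at 29.8, 127, 1690, 2845 and 3895 CPM in WT Non-Tg mice. In KO Non-Tg mice it lay at 31.4, 60.8, 85.7, 151 and 277 CPM. All 5 KO Non-Tg libraries were thus low, together with WT Non-Tg replicates 3 and 6.
In WT Tg-SwDI mice Ttr lay at 70.2, 2902, 3041, 3188 and 3454 CPM, and in KO Tg-SwDI mice at 81.4, 2009, 2962, 3363 and 3551 CPM. WT Tg-SwDI replicate 7 and KO Tg-SwDI replicate 2 were the low libraries of their groups, and both lay within the range of KO Non-Tg. Ordered by Ttr, the 20 libraries showed their widest gap between 277 and 1690 CPM, 2.61 on the log2 scale, with 11 libraries above it and 9 below. The next widest gap was 0.95. Above the gap were 3 of 5 WT Non-Tg, 0 of 5 KO Non-Tg, 4 of 5 WT Tg-SwDI and 4 of 5 KO Tg-SwDI libraries.

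**Figure D1:**
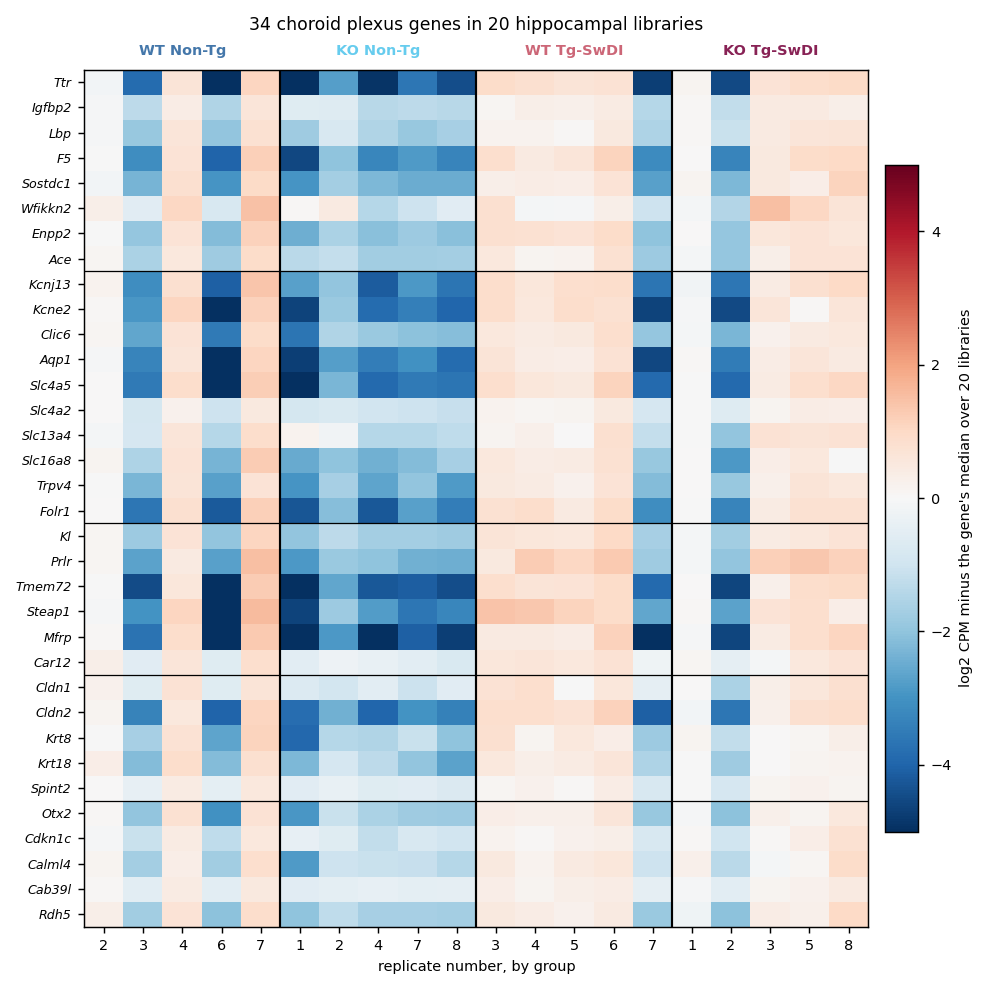
Heat map of the 34 choroid plexus genes (rows, with lines between the roles in the order of the text) in 20 libraries (columns, by group and replicate number). Colour is log2 CPM minus the gene's median over the 20 libraries and saturates at 5 in either direction. The 5 KO Non-Tg libraries, WT Non-Tg replicates 3 and 6, WT Tg-SwDI replicate 7 and KO Tg-SwDI replicate 2 are blue in most rows.

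The other members followed the same libraries. In 32 of the 34 genes, each of the 11 libraries above the Ttr gap lay higher than each of the 9 below it, and 28 of these also had their own widest gap at that place. For Car12 the step was small, from at most 41.9 CPM in the 9 libraries to at least 44.9 CPM in the 11. Of all 16107 genes tested, 190 (1.18%) separated the same libraries in the direction of Ttr. The exceptions among the members were Wfikkn2 and Slc13a4. WT Non-Tg replicate 7 held the highest value of 23 members and KO Tg-SwDI replicate 8 of 4. The lowest value was in KO Non-Tg replicate 1 for 12 members, in WT Non-Tg replicate 6 for 10 and in KO Tg-SwDI replicate 2 for 7. In bulk tissue, fewer cells of a type and less RNA per cell cannot be told apart. Together the 34 genes took between 0.0496% and 0.101% of counts in the 9 libraries and between 0.359% and 0.777% in the 11 libraries.

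Among the secreted proteins and carriers, Enpp2 (chromosome 15, 54838901 to 54952892), the enzyme autotaxin that makes lysophosphatidic acid, lay at 239, 281, 1073, 1742 and 2384 CPM in WT Non-Tg and at 201, 251, 254, 306 and 361 CPM in KO Non-Tg mice. It lay at 271, 1718, 1807, 1886 and 2057 CPM in WT Tg-SwDI and at 279, 1087, 1587, 1617 and 1720 CPM in KO Tg-SwDI mice. The order of libraries was close to that of Ttr, but the highest Enpp2 value was 11.9 times the lowest, against 131 times for Ttr. F5, coagulation factor V, spanned 1.29 to 69.2 CPM and Sostdc1, an antagonist of bone morphogenetic proteins, 2.05 to 34.9 CPM. Lbp, the lipopolysaccharide-binding protein, spanned 4.2 to 28.4 CPM and Ace, the angiotensin-converting enzyme, 16.3 to 118 CPM. Igfbp2, which binds insulin-like growth factors, spanned 23.9 to 103 CPM, a ratio of 4.31.

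Per kilobase of exons, Ttr and Enpp2 stood above the other members. At their highest they reached 3284 and 413 CPM per kilobase, followed by Igfbp2 at 55.7, Ace at 22.2 and Kcnj13, whose exons overlap those of Gigyf2, at 21. In its lowest library Ttr was still at 25.1 CPM per kilobase, from 596 counts. Enpp2 was at 34.7 CPM per kilobase at its lowest.

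The channels and transporters carry water, ions and nutrients across the epithelium. Aqp1 (chromosome 6, 55336432 to 55348555), a water channel, lay at 0.15, 1.14, 10.8, 17.1 and 23.8 CPM in WT Non-Tg and at 0.43, 0.773, 1.01, 1.39 and 1.66 CPM in KO Non-Tg mice. It lay at 0.478, 14.3, 14.6, 17.5 and 18.7 CPM in WT Tg-SwDI and at 0.991, 11.6, 14.6, 15.3 and 17.2 CPM in KO Tg-SwDI mice. The lowest library held 3 counts of Aqp1, and the ratio of highest to lowest, 159, had an exact 95% counting interval of 54.1 to 773.
Slc4a5, a sodium bicarbonate cotransporter of the apical membrane, spanned 0.287 to 36.6 CPM. Kcnj13, an inwardly rectifying potassium channel, spanned 0.579 to 26.6 CPM. Exons of Gigyf2 on the opposite strand cover 49.1% of its exonic length, and the strand setting of the counting is not given in the sources used here. Kcne2, a potassium channel subunit, spanned 0.25 to 18.3 CPM. Folr1, the folate receptor that carries folate into the fluid, spanned 0.669 to 29.3 CPM. These 5 members had ratios of 43.8 or more.
Clic6, an intracellular chloride channel protein, spanned 3.11 to 72.9 CPM, Trpv4, an osmosensitive cation channel, 1.2 to 14.9 CPM, and Slc16a8, a lactate transporter, 0.417 to 7.2 CPM. Slc4a2, an anion exchanger of many tissues, had the smallest ratio of this set at 3.15, with 24.2 to 76.2 CPM, and Fastk on the opposite strand covers 13.7% of its exonic length.

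Slc13a4 and Wfikkn2 did not separate the libraries as Ttr did. Slc13a4 (chromosome 6, 35267957 to 35308131), a sodium sulphate cotransporter, lay at 9.11, 9.2, 10.3, 22.1 and 28.2 CPM in KO Non-Tg mice, the last of these in replicate 1, where Ttr was at 31.4 CPM. It lay at 9.29, 14, 23.3, 37.8 and 45.5 CPM in WT Non-Tg mice. In WT Tg-SwDI mice it lay at 10.9, 25, 27.3, 29.7 and 42.7 CPM, and in KO Tg-SwDI mice at 6.31, 24.6, 38.7, 40.5 and 41.5 CPM. The lowest of the 11 libraries above the Ttr gap was at 23.3 CPM, so KO Non-Tg replicate 1 at 28.2 CPM lay above it and replicate 2 at 22.1 CPM just below it.
Wfikkn2, a secreted protein with protease inhibitor domains, was at 2.96 CPM in KO Non-Tg replicate 1 and 3.93 CPM in replicate 2, against 1.06 to 1.93 CPM in the other 3 libraries of that group. Igfbp2 was at 43.8 and 42.6 CPM in these libraries and at 25.3 to 27.2 CPM in the other 3, and so stayed below its lowest value of 64.6 CPM above the gap.
The same libraries had the highest summed level of 10 meningeal fibroblast genes in their group. That sum was 268 and 244 CPM in KO Non-Tg replicates 1 and 2, against 126, 133 and 142 CPM in replicates 4, 7 and 8. All 10 genes were detected in every group, and the part of such cells in these values was not tested.

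**Figure D2:**
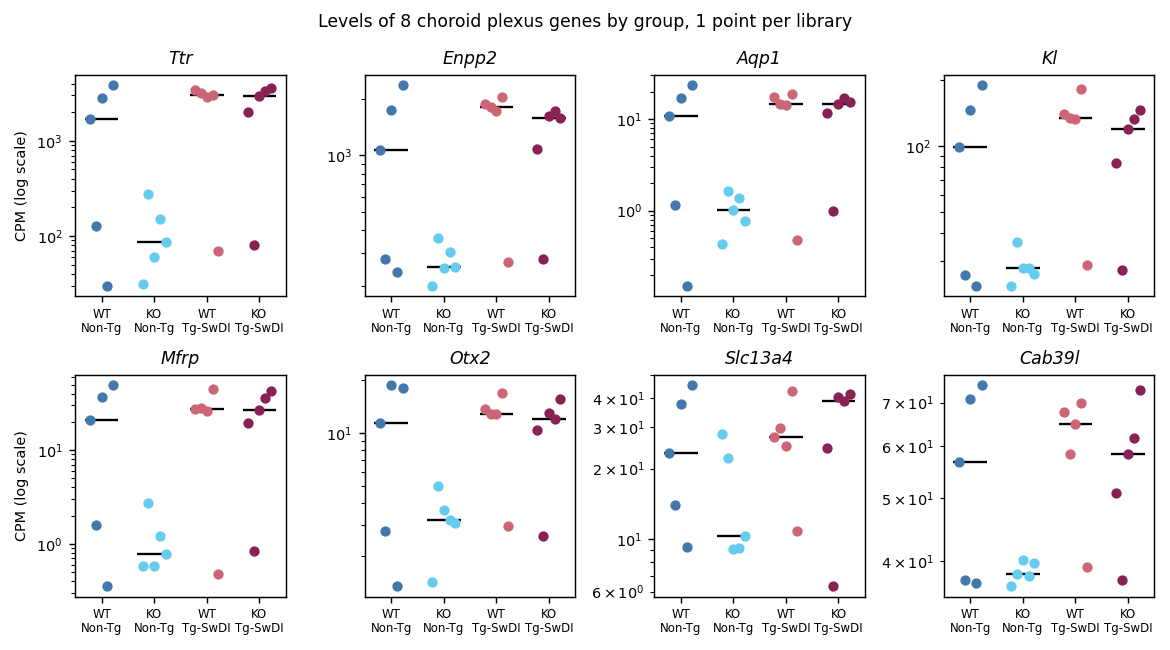
Levels of 8 choroid plexus genes, 1 point per library and a line at the median of each group, in CPM on a log axis that does not start at 0. Ttr, Enpp2, Aqp1, Kl, Mfrp, Otx2 and Cab39l show the same low libraries in each group, and Slc13a4 shows 2 KO Non-Tg libraries, at 22.1 and 28.2 CPM, apart from the other 3 of that group.

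Receptors and other membrane proteins showed both wide and narrow ranges. Kl (chromosome 5, 150952607 to 150993817), which encodes klotho, a co-receptor for a hormone of the fibroblast growth factor family, lay at 23.1, 26, 98.3, 146 and 190 CPM in WT Non-Tg and at 23, 26.1, 27.8, 28 and 36.4 CPM in KO Non-Tg mice. It lay at 28.7, 132, 134, 140 and 182 CPM in WT Tg-SwDI and at 27.4, 83.6, 119, 132 and 146 CPM in KO Tg-SwDI mice. Its highest value was 8.23 times the lowest, and the low libraries differed little among themselves.
Mfrp (chromosome 9, 44101729 to 44109187), a membrane protein with a frizzled-related domain, lay at 0.35, 1.59, 20.8, 37.3 and 49.8 CPM in WT Non-Tg and at 0.574, 0.579, 0.773, 1.2 and 2.75 CPM in KO Non-Tg mice. It lay at 0.478, 26.1, 27.7, 28 and 45.4 CPM in WT Tg-SwDI and at 0.834, 19.7, 26.8, 36 and 43.1 CPM in KO Tg-SwDI mice. Exons of C1qtnf5 on the same strand cover 36.7% of the exonic length of Mfrp, so reads of these genes may not be fully told apart.
Tmem72, a transmembrane protein enriched in this epithelium, spanned 0.43 to 48.3 CPM, and Prlr, the prolactin receptor, 4.64 to 94.4 CPM. Steap1, of the metalloreductase family, spanned 0.0499 to 6.92 CPM. With 1 count in its lowest library, its ratio of 139 had a counting interval of 24.5 to 5507. Car12, a membrane carbonic anhydrase, spanned 28.5 to 86.9 CPM, a ratio of 3.05.

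Of the junction and keratin genes, Cldn2, the claudin that forms cation-permeable pores in tight junctions, spanned 0.717 to 27 CPM and Cldn1, another tight junction claudin, 2.92 to 15.4 CPM. Krt8 and Krt18, the paired keratins of simple epithelia, spanned 0.143 to 4.67 CPM and 0.677 to 7.88 CPM. Krt8 had 3 counts in its lowest library, and its ratio of 32.6 had a counting interval of 10.8 to 161. Spint2, an inhibitor of serine proteases, had a ratio of 2.55, with 14.1 to 35.8 CPM. The keratins and Cldn2 lay under 1 CPM in their lowest library, and Spint2 did not.

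Otx2 (chromosome 14, 48657677 to 48673819), the homeobox factor needed for choroid plexus development, lay at 1.35, 2.78, 11.4, 18 and 18.7 CPM in WT Non-Tg and at 1.43, 3.09, 3.21, 3.67 and 4.98 CPM in KO Non-Tg mice. It lay at 2.96, 12.9, 12.9, 13.6 and 16.8 CPM in WT Tg-SwDI and at 2.61, 10.4, 11.9, 12.9 and 15.5 CPM in KO Tg-SwDI mice. It was lowest in the libraries with the lowest Ttr of their groups, with WT Non-Tg replicate 6 lowest of all.
Cdkn1c, a cyclin-dependent kinase inhibitor, spanned 4.64 to 19 CPM, and an antisense gene covers 30.7% of its exonic length. Calml4, a calmodulin-like protein, spanned 0.669 to 8.97 CPM. Rdh5, a retinol dehydrogenase, spanned 2.09 to 17.2 CPM, and Bloc1s1 on the same strand covers 25.6% of its exonic length.
Cab39l (chromosome 14, 59440972 to 59585764), a scaffold protein of the LKB1 kinase complex, lay at 36.9, 37.3, 56.7, 70.8 and 74.6 CPM in WT Non-Tg and at 36.5, 37.9, 38.2, 39.7 and 40.1 CPM in KO Non-Tg mice. It lay at 39.1, 58.5, 65, 67.7 and 70 CPM in WT Tg-SwDI and at 37.3, 50.9, 58.3, 61.8 and 73.1 CPM in KO Tg-SwDI mice. Its ratio of 2.04 was the smallest of the 34, yet the 9 low libraries, all between 36.5 and 40.1 CPM, did not overlap the 11 others, which began at 50.9 CPM.

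The ratio of the highest to the lowest library was at least 10 in 21 members and under 3 in 2, Spint2 and Cab39l. The spread within groups was measured as the pooled SD of log2 CPM within the 4 groups. It ran from 0.35 for Cab39l to 2.37 for Ttr with a median of 1.12, where the median of all 16107 genes tested was 0.14. Of all genes tested, 2 had a larger SD than Ttr. They were Prl and Gh, the pituitary hormones prolactin and growth hormone, which are named here after their values were seen. Of the 34 members, 27 lay in the top 1%, beyond an SD of 0.75. Within-group differences made up a median of 63.8% of the members' total variation, from 52.6% for Slc4a2 to 85.7% for Wfikkn2, and a median of 74.2% over all genes tested. The median SD over members was 1.52 in WT Non-Tg mice, 1.05 in Tg-SwDI mice with miR-34a and 1.12 in those without it, the groups with libraries on both sides of the gap, and 0.61 in KO Non-Tg mice. For all genes these medians were 0.11, 0.12, 0.17 and 0.10, respectively.

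**Figure D3:**
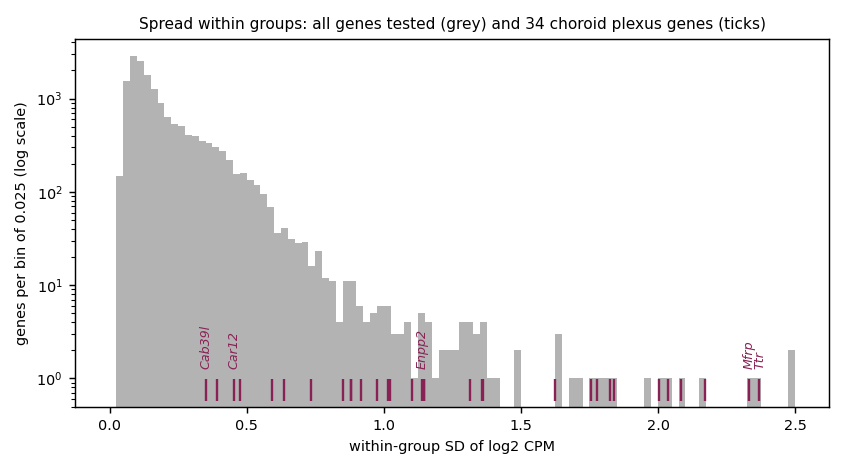
Histogram of the within-group SD of log2 CPM over all genes tested (grey, log count axis, 2 genes above 2.5 placed in the last bin), with the 34 choroid plexus genes as ticks. Ttr at 2.37 lies far from the median of all genes at 0.14, and Cab39l at 0.35 lies nearest to it.

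The groups were compared with edgeR's quasi-likelihood test on all 16107 genes, with Benjamini-Hochberg adjusted p-values and a call at an adjusted p under 0.05. All 34 members passed the filter on low counts. Since the members were chosen on their spread within and between these groups, their calls are a description and nothing is read from them about miR-34a or the transgene. In KO against WT Non-Tg mice 0 of 34 members were called, as were 0 of all genes tested (0%), while 30 members and 1302 of all genes had an unadjusted p under 0.05. With 1 library left out, the 30 became at least 22, without WT Non-Tg replicate 7, among 1187 genes in all. The most was 32, without WT Non-Tg replicate 3 or 6, among 1502 and 1426 genes in all. All 34 members had lower fitted values in KO mice, with a median log2 difference of -1.92 against 0.00 over all genes. The lowest adjusted p of a member was 0.508. Ttr had a log2 difference of -3.83 ± 1.24 (SE, n = 5 per group, adjusted p = 0.508 by edgeR) and Mfrp of -4.22 ± 1.26 (SE, adjusted p = 0.508).
DESeq2 also called 0 members here, and 0 genes in all. The exactTest of edgeR with dispersions of the 10 compared libraries called 20 of the 33 members it tested, all lower in KO mice, where 0.862% of all genes were called. Ttr then had an adjusted p of 0.0169 and Mfrp of 0.00886. WT Non-Tg replicate 6 lay at or below the highest KO Non-Tg library in all 34 members and replicate 3 in 33, so the groups overlapped in each gene.

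In KO Tg-SwDI against KO Non-Tg mice, which share the KO Non-Tg libraries with the comparison above, 22 of the 34 members were called, all higher in Tg-SwDI, and 20.8% of all genes were called. All 34 had higher fitted values, with a median log2 difference of 1.95 against 0.00 over all genes. Ttr had a log2 difference of 4.3 ± 1.27 (SE, n = 5 per group, adjusted p = 0.0245 by edgeR), Prlr of 3 ± 0.824 (adjusted p = 0.0169) and Slc4a2 of 1.03 ± 0.293 (adjusted p = 0.0203). The 12 members not called included Clic6 at 2.1 ± 0.751 (adjusted p = 0.058), Otx2 at 1.7 ± 0.654 (adjusted p = 0.0767), Krt8, Krt18, Slc13a4 and Wfikkn2. KO Tg-SwDI replicate 2 lay at or below the highest KO Non-Tg library in 33 of 34 members, so the groups overlapped there.
The count rested on single libraries. Without KO Non-Tg replicate 4 or 8 it was 3, where 2545 of 16216 and 2495 of 16214 genes were called in all. Without KO Non-Tg replicate 1 or 7 it was 4, where 2767 of 16206 and 2561 of 16225 were. It was 13 without KO Tg-SwDI replicate 3 (2851 of 16205 genes) and 10 without KO Tg-SwDI replicate 5 (2981 of 16212). Without KO Tg-SwDI replicate 8, the library with the high mitochondrial share, it was 9 (3061 of 16224). It was 16 without WT Tg-SwDI replicate 3, 4 or 5, which are not in this comparison (3138 to 3275 genes called in all). The members' median log2 difference was 1.82 to 2.23 in these and the other fits with 1 library left out, and all 34 stayed higher in each. DESeq2 called 28 members, where it called 3608 of 16674 genes in all. The exactTest called 32, where 2730 of 15607 genes were called. The quasi-likelihood fit on the compared groups alone called 31, where 2436 of 15607 were. By the same test as the 22, 6 of 6 microglia genes were called higher, 1 of 12 ependyma genes (Foxj1, a regulator of cilia), 0 of 10 meningeal fibroblast genes and 0 of 4 blood genes that passed the filter. Of genes marking hippocampal fields 1 of 8 and of thalamus and habenula genes 1 of 10 were called, both lower.

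In KO against WT Tg-SwDI mice 0 of 34 members were called, where 1.99% of all genes were. At an unadjusted p under 0.05 there were 0 members and 3053 genes in all. DESeq2 and the exactTest called 0 members, among 733 and 315 genes in all. The members' median log2 difference was -0.13, with 7 of 34 higher in KO mice. It was 0.13, with 24 of 34 higher, without KO Tg-SwDI replicate 2, 0.01 without WT Tg-SwDI replicate 6, and -0.39 without WT Tg-SwDI replicate 7, so its sign rested on single libraries. Ttr had -0.08 ± 1.1 (SE, n = 5 per group, adjusted p = 0.979 by edgeR). In WT Tg-SwDI against WT Non-Tg mice 0 of 34 were called, where 4.41% of all genes were, and 0 members had an unadjusted p under 0.05 among 2448 genes in all. Their median log2 difference was 0.23, with 32 of 34 higher in Tg-SwDI mice. When WT Non-Tg replicate 6 was left out it was 0.01, with 18 of 34 higher, and when replicate 3 or 7 of the same group was left out it was 0.02 or 0.60. Ttr had 0.56 ± 1.1 (adjusted p = 0.878 by edgeR). DESeq2 and the exactTest called 0 members here too, among 838 and 1018 genes in all.
The interaction of transgene and miR-34a, which asks whether the change with the transgene differed by genotype, called 0 of 34 members and 0.608% of all genes. Of the members, 13 had an unadjusted p under 0.05, among 2821 genes in all, and the lowest adjusted p was 0.19. Leaving out WT Non-Tg replicate 7 gave 1 such member among 2710 genes in all, and leaving out WT Non-Tg replicate 4 gave 2 among 2305. Leaving out WT Non-Tg replicate 6 gave 27 among 2933. Leaving out any other library gave 3 to 26 members, in fits with 2306 to 3483 such genes in all. All 34 had fitted interactions above 0, with a median of 1.72 on the log2 scale. DESeq2 called 0 members for the interaction, among 477 genes in all.

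**Figure D4:**
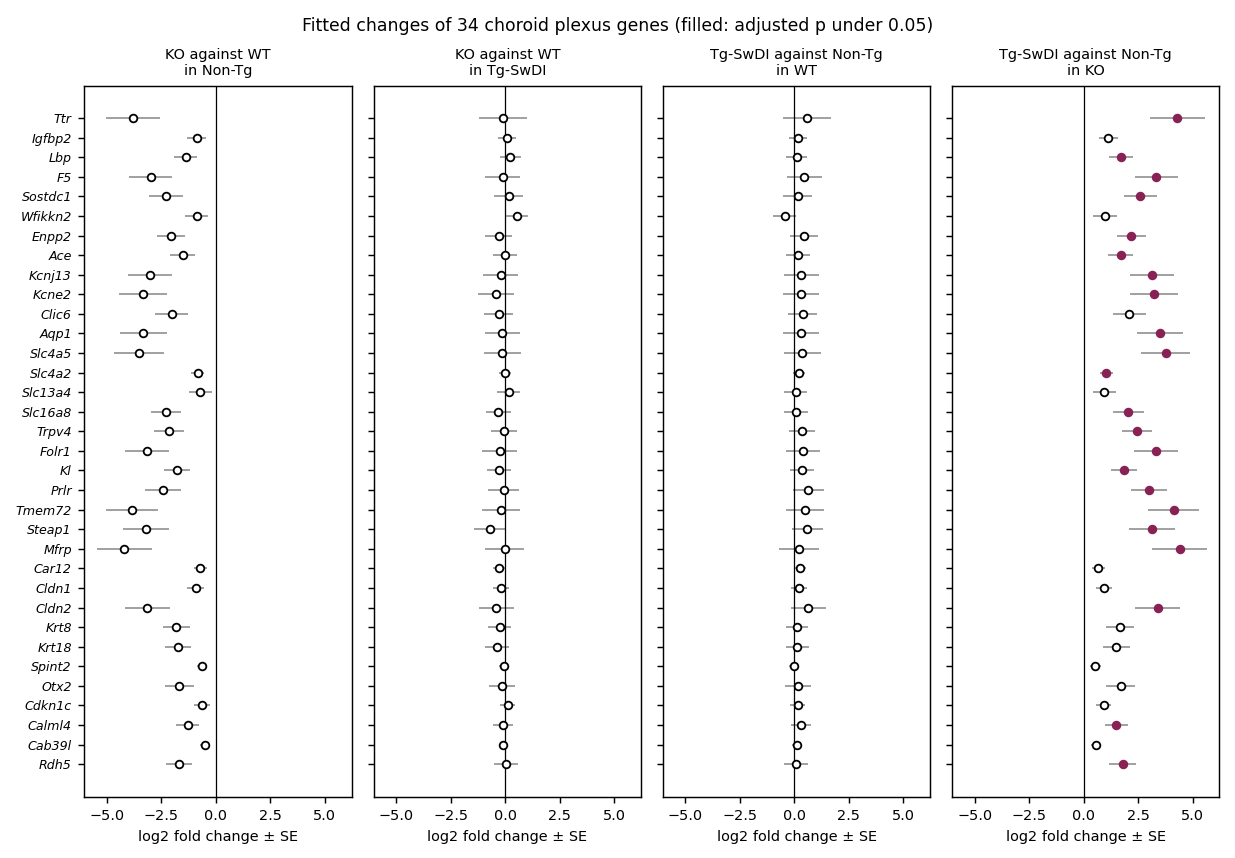
Log2 fold changes (points) with their standard errors (bars) of the 34 choroid plexus genes in the 4 pairwise comparisons of edgeR's fit, filled where the adjusted p is under 0.05. Points lie left of 0 for all 34 genes in KO against WT Non-Tg, right of 0 in Tg-SwDI against Non-Tg KO mice, where 22 are filled, and between -0.69 and 0.64 in the other comparisons.

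A further 16 choroid plexus genes, not part of the 34, were examined next. They were chosen from knowledge of the tissue but with earlier results of these data known, so their values are also given as a description. Mia was close to absent, with at most 0.0966 CPM, and the other 15 passed the filter. Of the 16, 12 separated the same 11 and 9 libraries as Ttr, where 1.18% of all genes tested did. Ecrg4 (1500015O10Rik in the annotation), which encodes a secreted precursor of the choroid plexus, spanned 1.1 to 28.9 CPM, and Col8a1, a short-chain collagen, 0.649 to 24.2 CPM. Htr2c, a serotonin receptor of this epithelium and of neurons, spanned 38.9 to 86.5 CPM, and Trpm3, a cation channel, 40.5 to 145 CPM.
Igf2, an insulin-like growth factor made by choroid plexus and meninges, was at 134 and 112 CPM in KO Non-Tg replicates 1 and 2 and at 37.3 to 53.3 CPM in the other 3 libraries of that group. In KO Tg-SwDI against KO Non-Tg mice 8 of the 15 tested were called, all higher, where 20.8% of all genes were called in either direction. In KO against WT Non-Tg mice 0 were, where 0% of all genes were. An unadjusted p under 0.05 was found for 10 of the 15, and for 1302 of all 16107 genes tested.

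The level of Ttr was compared with 7 marker lists by the mean log2 CPM of each list. Because the libraries fell into separate sets, correlations were computed within the 11 libraries above the gap and within the 9 below it, and the 14 p-values were adjusted together. Ttr was selected on these data and the lists were chosen with earlier results known, so these p-values are a description. With the other choroid plexus genes, Pearson's r was 0.903 over the 11 libraries (permutation p = 7.6e-04, adjusted p = 0.0106) and 0.89 over the 9 (exact permutation p = 0.00204, adjusted p = 0.0143). Spearman's rho was 0.655 (permutation p = 0.0338, adjusted p = 0.141) and 0.8 (exact permutation p = 0.0138, adjusted p = 0.141). Without the 2 libraries farthest from the median of Ttr, r was 0.651 (exact permutation p = 0.0539) and 0.701 (exact permutation p = 0.079), so both relations rested in part on those libraries.
The remaining 12 correlations did not pass the adjusted threshold. For ependyma, r was 0.319 over the 11 libraries and 0.495 over the 9, and for meningeal fibroblasts it was 0.276 and 0.04. For blood, r was -0.661 over the 11 libraries (permutation p = 0.0248, adjusted p = 0.116). For microglia it was 0.00 and -0.05.

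The levels of the lists were then set beside the groups. Summed ependyma genes ran from 33 to 70.1 CPM in WT Non-Tg, 22.9 to 44.5 CPM in KO Non-Tg, 44.9 to 52.1 CPM in WT Tg-SwDI and 45.8 to 59.7 CPM in KO Tg-SwDI libraries. All 12 ependyma genes had lower fitted values in KO than in WT Non-Tg mice, with a median log2 difference of -0.40. Of these, 0 were called and 5 had an unadjusted p under 0.05, as had 1302 of all 16107 genes tested. The part of ependyma in the members' values was not tested. Genes of hippocampal fields, among them Prox1 of the dentate gyrus and Wfs1 of CA1, summed to between 727 and 886 CPM in the 20 libraries, and genes of thalamus and habenula to between 142 and 187 CPM. Hippocampal markers were thus present in every library, and thalamic genes were detected in all.
Microglia genes summed to between 298 and 387 CPM in Non-Tg and between 581 and 939 CPM in Tg-SwDI libraries. WT Tg-SwDI replicate 7 and KO Tg-SwDI replicate 2 had low choroid plexus genes. Microglia genes summed to 644 CPM in the former, the median of its group, and to 939 CPM in the latter, the highest of all libraries.

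**Figure D5:**
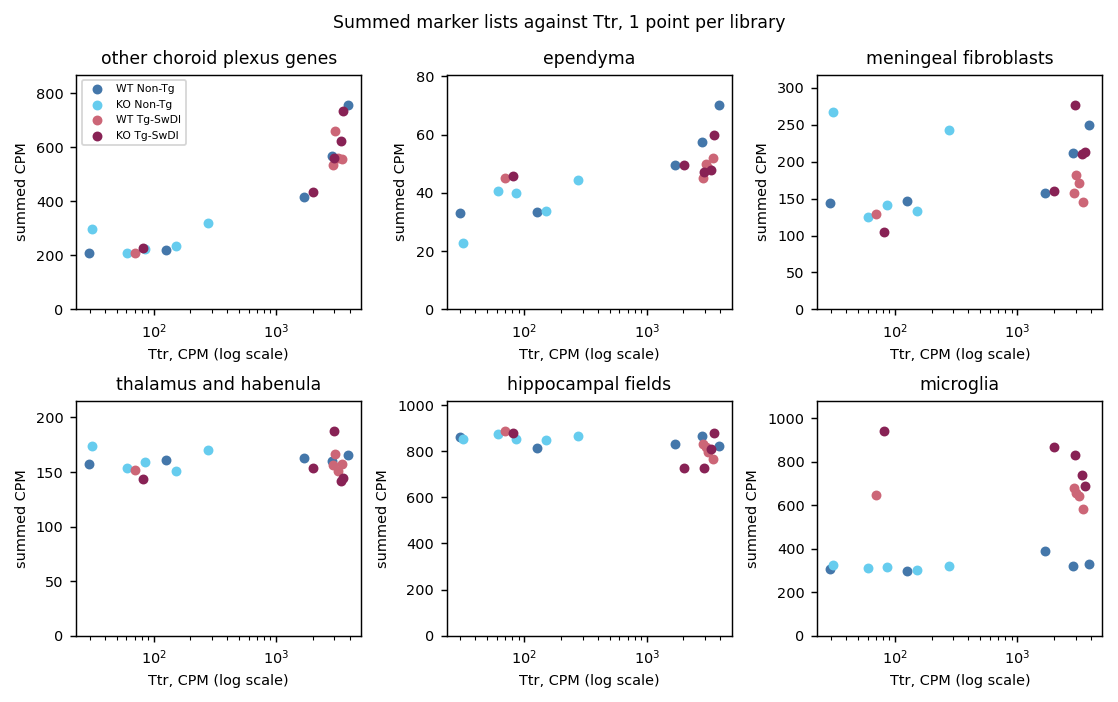
Summed CPM of 6 marker lists (vertical axes, from 0) against Ttr in CPM (horizontal log axes), 1 point per library, coloured by group. The other choroid plexus genes lie higher in the 11 libraries with Ttr of at least 1690 CPM, hippocampal fields and thalamus and habenula lie in narrow bands, and microglia genes separate the Tg-SwDI from the Non-Tg libraries at low and at high Ttr.

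The genes most like the members were ranked over the 20 libraries by Pearson's r between their log2 CPM and the members' mean centred log2 CPM, among 16073 other genes tested. The 12 highest were Abca4 (r = 0.991), Col8a1 (0.99), Slc2a12 (0.988), 1500015O10Rik (0.987), Col9a3 (0.986), Wdr86 (0.981), Col8a2 (0.981), Slc31a1 (0.979), Wfdc2 (0.978), Oca2 (0.978), Drc7 (0.977) and Nid2 (0.973). Since the libraries fall into separate sets, these values mainly state that all 12 genes separated the same libraries. Slc2a12, a glucose transporter, spanned 3.35 to 34.1 CPM and Wfdc2, a secreted protein of epithelia, 0.0478 to 4.96 CPM. Col9a3, a collagen chain, spanned 5.04 to 31.8 CPM, and Slc31a1, a copper transporter, 20.9 to 52.5 CPM. The 5 lowest were Cacna2d1 (r = -0.861), Ctnna2 (-0.844), Armc8 (-0.816), Zmym4 (-0.813) and Cdh8 (-0.812). Their ranges were narrow, with Cacna2d1, a calcium channel subunit, between 197 and 257 CPM and Cdh8, a neuronal cadherin, between 57.8 and 76.8 CPM.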

How the data were processed

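The authors aligned reads of stranded mRNA libraries to mm10 with STAR, assigned them to ENSEMBL genes with featureCounts, and deposited raw read counts per gene, 1 column for each of 20 libraries. Tool versions, the strand setting and the treatment of reads matching several genes are not given in the sources used here, so genes with overlapping exons are uncertain. Genes were named from GENCODE M21, which matched 38872 identifiers (99.5%), and exonic lengths came from it.

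The 34 members and all marker lists were chosen with earlier results of these data known. Samples were grouped by genotype and transgene in their labels. Counts were analysed with edgeR 4.0.16 in R 4.3.3: TMM factors, filterByExpr by group (minimum count 10, minimum total 15), 1 robust quasi-likelihood model with 1 mean per group (16 residual degrees of freedom), and Benjamini-Hochberg adjustment over 16107 genes. Log2 CPM used a prior count of 2. Correlations used two-sided permutation tests, exact below 10 libraries and with 100000 random orders for 10 or 11, in Python 3.11.15. Intervals cover counting error only, at totals of 19549622 to 21066868 counts. Alternatives were no filter, a mean CPM of at least 1, RLE factors, library size alone, DESeq2 1.42.0, the exactTest, the compared groups alone, a prior count of 0.5, the replicate number as a block and each library left out. Named genes were all members, the list genes described, the 12 most and 5 least like the members, Thy1 and Xist. Prl and Gh were named after their values were seen.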

Additional observations from a re-analysis of the deposited data

Results flagged for a closer look

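Within a group of 5 libraries, a value was set apart by Dixon's ratio of its gap to the nearest other library over the range of the group, above 0.71. For the members and the list sums the ratio was taken on log2 CPM, where gaps at low values weigh more than in CPM. Chance flags about 1 in 20 groups. Of 136 combinations of 34 members and 4 groups, 51 had such a library. WT Tg-SwDI replicate 7 was set apart as the lowest of its group in 29 members and KO Tg-SwDI replicate 2 in 21, both libraries below the gap in Ttr. KO Non-Tg replicate 1 was set apart as the lowest in 1 member. These flags are not independent, since the members moved together.

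The list sums and the mitochondrial share were examined in 32 combinations with the groups. The summed level of the 16 other choroid plexus genes was set apart as the lowest of its group in WT Tg-SwDI replicate 7, at 209.5 CPM. Summed blood genes, at 22.7 CPM in KO Non-Tg replicate 4 and 1.67 to 3.89 CPM in the rest of that group, were not set apart on the log2 scale. The mitochondrial share of counts was set apart as the highest in KO Tg-SwDI replicate 8, at 14.6%. The summed level of thalamus and habenula genes was set apart as the highest of its group in KO Tg-SwDI replicate 3, at 187 CPM, a library with Ttr at 2962 CPM.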

How the results depend on the processing

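Of 380 values computed under alternatives, 362 kept their direction and side of the threshold, or stayed within 1.5 times the count or 1 SD over members (6.99 percentage points for the within-group share, 0.58 for the SD). In KO Tg-SwDI against KO Non-Tg mice the members called were 22 in the main test, 13 with no filter on low counts and 3 to 30 with 1 library left out. They were 28 with DESeq2, 32 with the exactTest and 31 with the compared groups alone. Over all genes the calls were 3351, 2783, 2495 to 3741, 3608, 2730 and 2436, in the same order. With the replicate number as a block 0 members were called, where 2538 of all 16107 genes were. The members' median log2 difference was then 1.92 against 1.95 without the block, and the median within-group share of the members' variation was 53.7%. Of 16 same-numbered pairs of libraries 2 had deviations correlated by over 0.1 (range -0.40 to 0.15). The labels do not say what the number stands for, and whether same-numbered libraries shared anything else was not tested. The replicate block left the count of members called at 0 in the other 4 comparisons. The members with an unadjusted p under 0.05 went from 30 to 4 in KO against WT Non-Tg mice, and all such genes from 1302 to 1262. In KO Tg-SwDI against KO Non-Tg mice such members went from 32 to 10, and all such genes from 5389 to 4883. For the interaction they went from 13 to 0, and all such genes from 2821 to 2507. The calls over all genes went from 320 to 8 in KO against WT Tg-SwDI mice. They went from 710 to 709 in WT Tg-SwDI against WT Non-Tg mice and from 98 to 38 for the interaction. In KO against WT Non-Tg mice the exactTest called 20 members, among 134 genes in all. With 1 library left out, the median within-group share was 52.1% to 69.2%. The correlation of Ttr with other choroid plexus genes missed the threshold without the 2 libraries farthest from the median of Ttr (r = 0.651 above the gap and 0.701 below it), and below the gap it was 0.812 to 0.958 with 1 library left out, missing it without KO Non-Tg replicate 2. The correlation with blood above the gap was -0.834 to -0.554, past the threshold without WT Tg-SwDI replicate 6. The cause was not tested. Members with few counts, such as Steap1 and Aqp1, have wide counting intervals in the low libraries.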
